A study of Rattus norvegicus with 4 samples.

Results

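The injured gracilis muscle was compared between day 7 and day 3 of reperfusion. The day 7 sample was gracilis, a strap-like adductor of the thigh, from male Sprague-Dawley rats after 4 h of ischemia and 7 days of reperfusion, and the day 3 sample had the same 4 h of ischemia and 3 days of reperfusion. Each was labelled with Cy5 (red) and hybridised on a 2-colour Agilent rat array with gracilis of sham-operated rats of the same strain and sex, labelled with Cy3 (green). These were 2 of the 4 arrays of a time course of 1, 3, 7 and 14 days, and each array carried 1 injured and 1 sham sample in a fixed dye orientation. The labels do not say whether a sample was 1 animal or a pool, or whether the sham RNA was the same on every array. Genes were chosen by detection alone: a probe had to be well above background in at least 1 channel of both arrays, which held for 25719 of 41012 probes and gave 22329 of the 35606 genes of the design, 11571 of them with a current symbol. In 12355 genes all 4 channels were above background.

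Skeletal muscle that dies after ischemia is cleared by phagocytes and rebuilt by satellite cells, the resident stem cells of the fibre. Their progeny first divide as myoblasts, then leave the cell cycle, fuse, and form new fibres that express embryonic and fetal contractile genes before the adult fast and slow forms. Macrophages, lymphocytes and fibroblasts take part in this repair and change their own programmes as it proceeds.

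The comparison asked what changed in the injured muscle between these days. Its basic value is the difference between the days of the log2 ratio of injured to sham, day 7 minus day 3. A gene is called higher or lower here when this difference was at least 2-fold and the injured channels, set against each other directly after quantile normalization, differed at least 2-fold the same way. With 1 array per day this is a rule of size and no test, and no value has a replicate. Spots of the same probe gave the only measure of error: over 40 probes printed 10 times, the log2 ratio had a median SD of 0.0738 on the day 7 array and 0.0705 on the day 3 array, or 0.102 for their difference, which covers spots within an array and not animals. In whole muscle, fewer cells of a type and less RNA per cell cannot be told apart.

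By ratio 1079 genes were higher on day 7 (4.83% of those measured) and 497 lower (2.23%). By ratio and injured channel 915 were higher (4.1%) and 422 lower (1.89%). These shares of all genes are the reference for the counts of each gene list below. Among genes with a symbol 608 were higher by both measures (5.25%) and 241 lower (2.08%). The larger differences were mostly upward: 297 genes were at least 4-fold higher against 43 lower, and 129 at least 8-fold higher against 3 lower. These counts of larger differences were taken with loess scaling only. Over all genes the median difference was 0.04 on the log2 scale, with quartiles of -0.16 and 0.24. Of the genes called by both measures 68.4% were higher. This split depended on the scaling: it was 52.6% with each array centred on its median in place of loess, and 58% with the ratios of the scanner software. By ratio alone 68.5% were higher, against 48.9% with median centring (989 higher and 1034 lower), where the balance turned, and 54.6% with the software's ratios.

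The day 7 array stood apart from the others in its sham channel, and this touches every ratio. Between the sham channels of days 7 and 3, which hold muscle of sham-operated rats, 21 genes were at least 2-fold higher on day 7 (0.094%) and 609 lower (2.73%). With all 4 arrays scaled together, the day 7 sham had 635 genes lower than that of day 3, 892 lower than that of day 1, and 619 genes were higher in the day 14 sham than in it, while the sham pairs without day 7 differed in at most 116 genes in a direction. Probes with less G and C were lower in the day 7 sham more often. Genes lower there had a median probe G and C content of 40%, against 45% over the 14608 genes above background in the sham channel of at least 1 of the arrays. The share lower was 12.9% for probes with up to 30% G and C, and 2.27% for those between 50% and 55%. In the injured channels the corresponding shares were 20.5% and 3.93%, and in the ratio 3.15% and 2.21%. The part of probe composition in single genes was not tested.

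The injured channel alone gave 1165 genes higher (5.22%) and 1179 lower (5.28%), and 757 of the lower ones did not pass by ratio. In 408 genes injured and sham channels were both at least 2-fold lower on day 7. Conversely, 164 genes were higher by ratio but not by injured channel, and in 57 of these the sham was at least 2-fold lower on day 7.

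**Figure D1:**
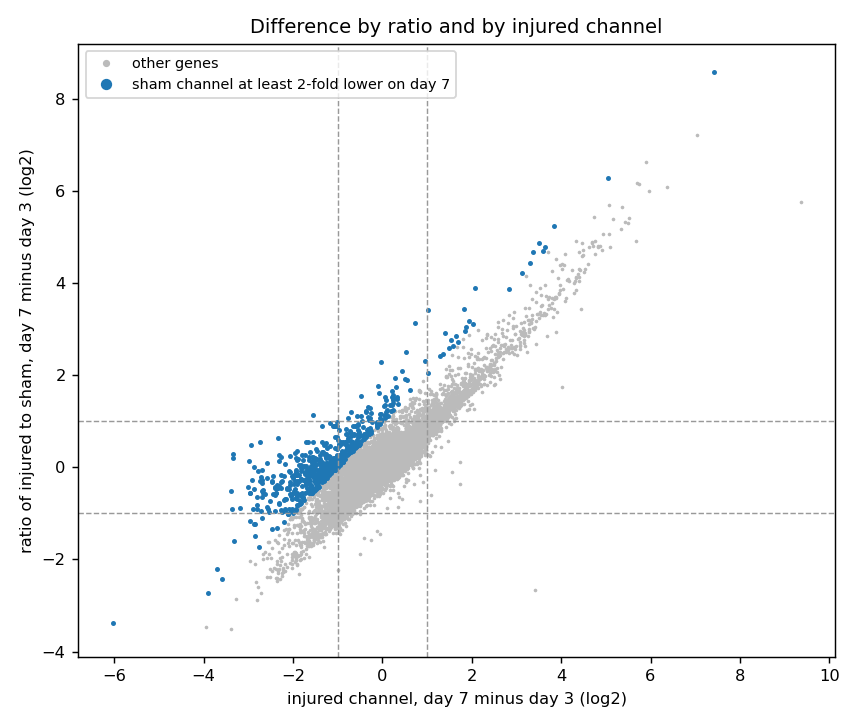
Difference between day 7 and day 3 of the ratio of injured to sham (vertical, log2) against that of the injured channel (horizontal, log2), 1 point per gene (22329 genes). Blue points are the 609 genes whose sham channel was at least 2-fold lower on day 7; dashed lines mark 2-fold, and the corner areas beyond both lines at upper right and lower left hold the 915 and 422 genes called.

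The position against sham on both days separates returns towards sham from departures. Of the 915 higher genes, 372 (40.7%) were at least 2-fold below sham on day 3 and within 2-fold of it on day 7, with medians of 0.03 on day 7 and -1.86 on day 3. Another 283 (30.9%) lay near sham on day 3 and at least 2-fold above it on day 7, with medians of 1.75 and -0.04. A further 46 (5.03%) crossed from at least 2-fold below sham to at least 2-fold above, and 35 (3.83%) were higher but still below. Of the 422 lower genes, 208 (49.3%) had been above sham on day 3 and were near it on day 7, with medians of -0.21 on day 7 and 1.35 on day 3. Only 48 (11.4%) left the range around sham downwards. These groups use the same ratios as the calls and are a description.

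**Figure D2:**
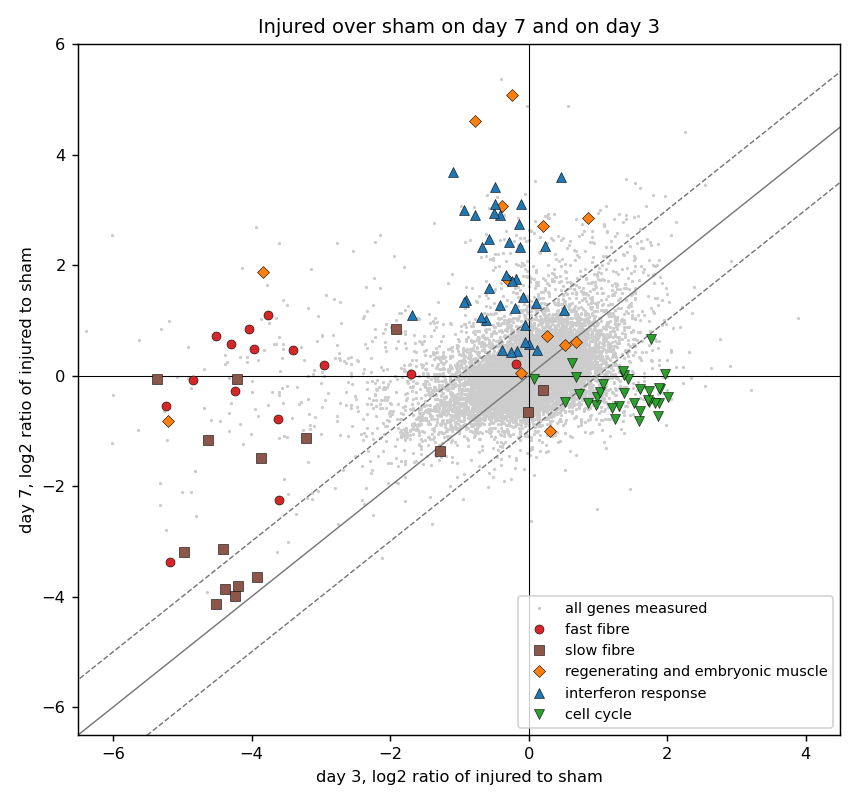
Log2 ratio of injured to sham on day 7 (vertical) against day 3 (horizontal) for all 22329 genes (grey) and for 5 gene lists (coloured). The solid line marks equal ratios and the dashed lines a 2-fold difference. Fast fibre genes lie at the left near 0 on day 7, part of the slow fibre genes lie near the line far below 0 on both days, interferon response genes stand above 0 on day 7, and cell cycle genes lie to the right of 0, most of them below 0 on day 7.

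Genes of the fast contractile apparatus were far below sham on day 3 and near it on day 7. The sham channels carried adult skeletal muscle transcripts, and every measured fast fibre gene except Gpd1 was well above background in both. Of 15 measured fast fibre genes 13 were higher (86.7%) and none lower, with a median difference of 3.96, or 3.30 by injured channel and -0.74 by sham channel. The list's median ratio was 0.19 on day 7 and -3.96 on day 3. Myl1, the fast myosin light chain, read 14.05 in the injured channel on day 7 and 10.21 on day 3, on a log2 intensity scale, and 13.33 and 14.72 in the sham channels. Its ratios were 0.72 on day 7 and -4.51 on day 3, a 37.7-fold difference by ratio and 14.3-fold by injured channel. Myh2, the myosin of fast oxidative fibres, had ratios of 0.58 and -4.29 (29.2-fold by ratio, 22.0-fold by injured channel). Atp2a1, the calcium pump of the fast sarcoplasmic reticulum, had ratios of 0.84 and -4.04 (29.5-fold). The troponin Tnnt3 lay above sham on day 7, at 1.1, and below it on day 3, at -3.76. By injured channel it was 11.3-fold higher, with its sham channel differing by -1.36. Its day 7 injured level of 14.82 was above the day 7 sham (13.72) but below the day 3 sham (15.08).

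Members of the list differed from each other. Myh4, the myosin of the fastest glycolytic fibres, was at -0.78 on day 7 and -3.62 on day 3. Its injured level was 13.55 on day 7 and 11.91 on day 3, which is 3.12-fold higher, while its sham channel differed by -1.20. Parvalbumin (Pvalb), the soluble calcium buffer of fast fibres, was 3.49-fold higher by ratio but still at -3.38, against -5.18 on day 3. Mybpc2, fast myosin-binding protein C, stayed at -2.25, against -3.61 on day 3, and did not pass by injured channel. Creatine kinase (Ckm) was saturated in the day 7 injured channel, so it was at least 13.9-fold higher by ratio (ratios of -0.49 and -4.29) and at least 10.8-fold by injured channel.

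Proteins that couple excitation to contraction and hold the sarcomere in register were higher too. Of 20 measured members 17 were higher (85%) and none lower, with a median difference of 4.14, and of 4.31 by injured channel. Triadin (Trdn), which anchors the calcium store to its release channel, read 13.03 in the day 7 injured muscle and 7.98 on day 3. Its ratios were 0.65 and -5.63, a 77.7-fold difference by ratio and 33.2-fold by injured channel, and of its 3 measured probes the least changed differed by 2.29. Myoz1, a calcineurin-binding protein of the Z-disc, had ratios of 0.51 and -4.92 (43.0-fold). Ldb3, a Z-disc scaffold, stood at 1.63 on day 7 and -3.78 on day 3, and its injured channel was 45.8-fold higher. Pdlim3, another Z-disc protein, was at -0.03 on day 7 and -5.08 on day 3. Tmod1, which caps thin filaments and is not in this list, was at 2.40 and -2.76. The intermediate filament desmin (Des) was among the less changed, at -0.37 and -2.51. Jph1 and Jph2, which join the calcium store to the surface membrane, lay within 2-fold of sham on both days, with differences of 0.05 and 0.33.

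**Figure D3:**
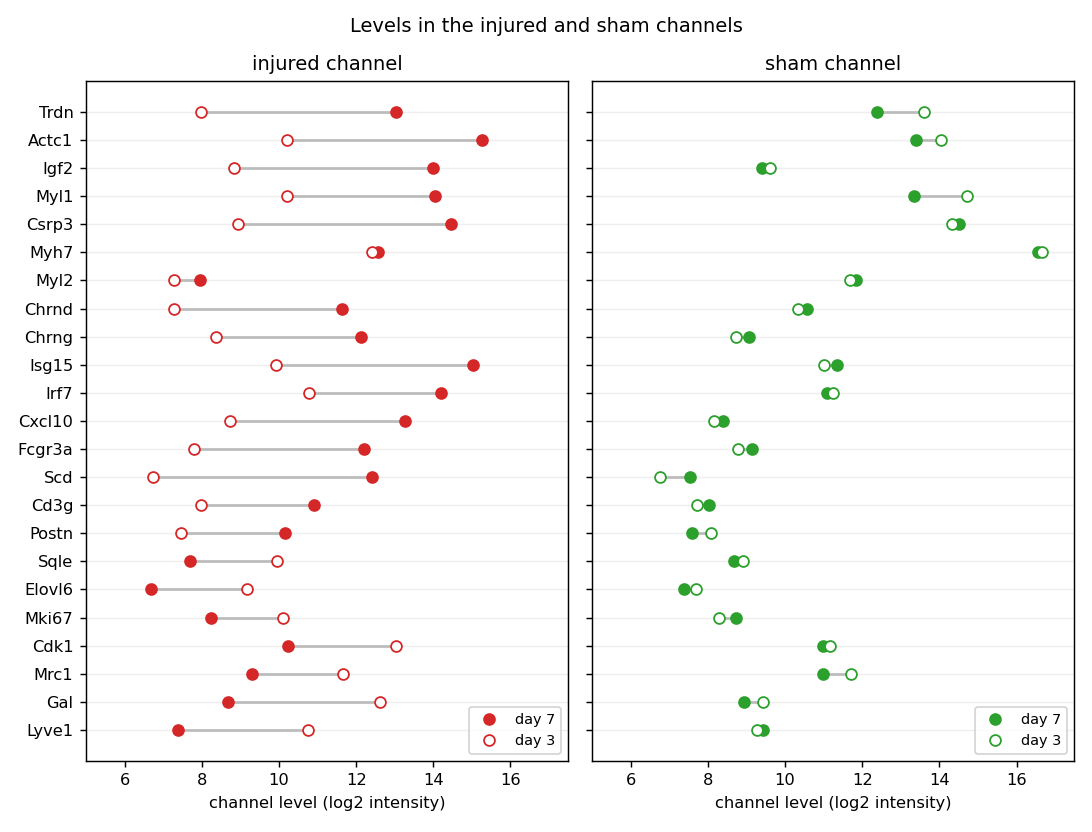
Levels of 23 genes in the injured channel (left panel, red) and the sham channel (right panel, green), as log2 intensity after normalization; filled points are day 7 and open points day 3, joined by a line. Levels are to be compared along a row, not between genes, since probes differ in brightness. The injured channel moved by up to 5.68 (Scd), while the sham channel moved by less than 2-fold except for Trdn and Myl1.

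Slow fibre genes split. Of 16 measured, 8 were higher (50%) and none lower, with a median difference of 0.90. Their median ratio was -1.43 on day 7 and -4.20 on day 3. The higher ones included Csrp3, the muscle LIM protein of the Z-disc, with an injured level of 14.45 on day 7 and 8.95 on day 3 and ratios of -0.06 and -5.37 (39.7-fold). Mybpc1, slow myosin-binding protein C, returned to sham as well (-0.06 and -4.21, 17.7-fold), and Fhl1, an LIM protein of the sarcomere, reached -1.17 against -4.63. Casq2, the slow and cardiac calsequestrin, was at 0.84 and -1.91. The slow myosin heavy chain Myh7 did not move with them: its injured level was 12.56 on day 7 and 12.41 on day 3, and its ratios were -3.99 and -4.24. Its sham spot was saturated on day 3, which makes the day 3 ratio an upper limit. The slow ventricular-type light chain Myl2, chosen after its values were seen, was also near its day 3 value, with ratios of -3.87 and -4.39. Atp2a2, the slow calcium pump, lay near sham on both days (-0.66 and -0.01), and its 3 measured probes differed between the days by -0.87 to 2.12.

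Most of the called genes of newly formed muscle lay above sham on day 7 and near it on day 3. Of 13 measured genes of regenerating and embryonic muscle 8 were higher (61.5%) and 1 lower, with a median difference of 2.03 and a median ratio of 1.73 on day 7 and -0.11 on day 3. Embryonic myosin (Myh3) had an injured level of 15.54 on day 7, where its spot was saturated, and 10.13 on day 3, with 10.47 and 10.37 in the sham channels. It was therefore at least 40-fold higher by ratio and at least 42.8-fold by injured channel. Igf2, a fetal growth factor also made by differentiating myoblasts, read 14.00 in injured muscle on day 7 and 8.84 on day 3, with ratios of 4.61 and -0.77 (41.8-fold). Cardiac actin (Actc1), the main actin of fetal muscle fibres, was at 1.88 and -3.83, a 52.1-fold difference, and its other probe differed by 2.51. Mustn1, a gene of musculoskeletal regeneration, was at -0.82 and -5.20. Dlk1, a membrane protein of fetal muscle, was the lower member (-1.01 and 0.31), and Ncam1, the cell adhesion molecule of newly formed and denervated fibres, differed by -0.07 with both sham spots below the background limit. Sarcolipin (Sln), a regulator of the muscle calcium pump that is in none of the lists, had injured levels of 15.12 and 9.16 and ratios of 2.40 and -3.60 (64.0-fold), and its second probe differed by 1.75.

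The factors that direct the myogenic programme did not move as a group. Of 19 measured, 2 were higher and none lower (median 0.01, with a range over the alternative settings of -0.01 to 0.28). Myf6, which in the mouse marks late differentiation and adult fibres, was at 0.57 on day 7 and -3.68 on day 3, a 19.1-fold difference by ratio and 13.9-fold by injured channel. Myogenin (Myog), which drives terminal differentiation, was at -0.02 and -1.45. Myod1, a factor of activated and dividing myoblasts, had an injured level of 9.65 on day 7 and 12.37 on day 3, 6.56-fold lower. Its sham channel differed by -1.77, and its ratio by -0.95 (1.01 and 1.95). Myf5, expressed in satellite cells and early myoblasts, differed by 0.57.

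Subunits of the muscle acetylcholine receptor were higher together. Of 15 measured genes of the neuromuscular junction 5 were higher (33.3%) and 1 lower, with a median difference of 0.66. The delta subunit Chrnd read 11.63 in injured muscle on day 7 and 7.29 on day 3. Its ratios were 1.07 and -3.04, on opposite sides of sham (17.2-fold). The embryonic gamma subunit Chrng was at 3.07 and -0.38 (11.0-fold), the alpha subunit Chrna1 at 2.62 and -0.33 (7.70-fold), and the adult epsilon subunit Chrne at 1.75 and -0.17, with both sham spots below the background limit. Musk, the receptor kinase that organises the endplate, differed by -0.31, also with dim sham spots. The lower member was Gap43, a growth protein of nerve endings, at -1.49 and -0.18.

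Genes of energy metabolism were higher in part, muscle-specific forms among them. Of 35 subunits of oxidative phosphorylation 25 were higher by ratio and 15 by both measures (42.9%), with a median difference of 1.24, or 0.97 by injured channel. Cox8b, the muscle form of a cytochrome oxidase subunit, read 14.13 on day 7 and 8.37 on day 3 in injured muscle, with ratios of 0.85 and -5.30 (70.8-fold), and of its 3 measured probes the least changed differed by 1.37. Cox6a2, another muscle form, was at 0.28 and -3.24. Among forms found in most tissues, Cox8a differed by 0.37 and Cox6a1 by -0.31, while cytochrome c (Cycs) was higher, at -0.01 and -1.59. Cox5a differed by 1.77 by ratio and by -0.09 by injured channel, with its sham channel at -1.86. Of 23 genes of glycolysis and glycogen 9 were higher and 1 lower (median 0.72). The muscle forms Pfkm (phosphofructokinase, 26.1-fold), Pgam2 (phosphoglycerate mutase, 26.1-fold) and Pygm (glycogen phosphorylase, 9.46-fold) were higher. Muscle enolase (Eno3), whose day 7 spot was saturated, was at least 8.85-fold higher, while Eno1, the enolase of most other cells, was the lower member, at -0.52 and 0.65. Of 24 genes of fatty acid oxidation 7 were higher (median 0.67). The muscle carnitine transferase Cpt1b was at -0.68 and -4.32, although its other probe differed by only 0.34, and the liver form Cpt1a differed by -0.48. Of 19 genes of the tricarboxylic acid cycle 8 were higher (median 0.95), such as Sucla2 (0.47 and -1.48). Muscle AMP deaminase (Ampd1), which is in none of the lists, had the highest difference of any gene with a symbol. It had injured levels of 14.80 and 7.76 and ratios of 0.81 and -6.39 (147-fold), but its other measured probe differed by 0.12.

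Genes of muscle protein breakdown were higher in part. Of 13 measured, 4 were higher (30.8%) and 1 lower (7.69%), against 4.1% and 1.89% of all genes (median 0.68). The muscle ubiquitin ligase Trim63 was at -1.72 and -4.82, still below sham, with its other probe differing by 0.96, and by injured channel it differed by 2.03. Asb2, a ligase subunit of muscle, was at -0.80 and -4.58 (13.7-fold). The lysosomal protease Ctsl was the lower member, at -2.23 and -0.95, and its other probe differed by -1.55.

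**Figure D4:**
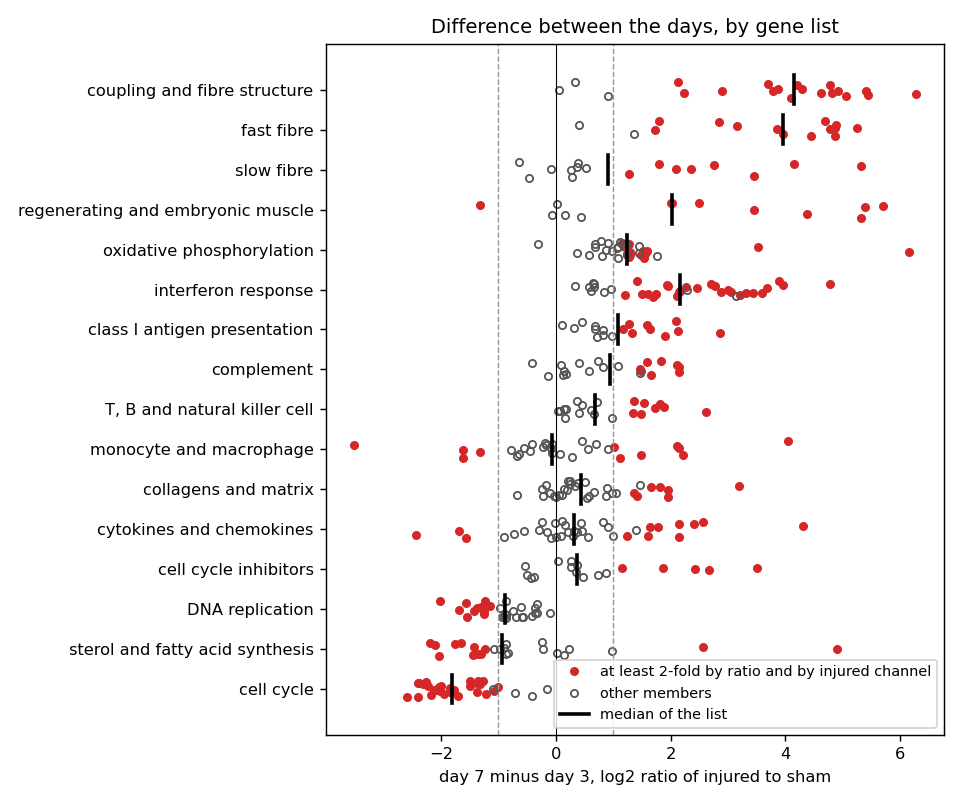
Difference between day 7 and day 3 of the log2 ratio of injured to sham for every measured member of 16 gene lists, 1 point per gene. Red points passed 2-fold by ratio and by injured channel, open points did not, and bars mark medians. The points of cell division, sterol synthesis and DNA replication lie mostly at the left, those of coupling, fast fibre and interferon response at the right, and macrophage and chemokine members on both sides.

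Cell division genes were lower on day 7. Of 32 measured 28 were lower and none higher, against 1.89% lower among all genes, with a median difference of -1.81, and of -1.89 by injured channel. The median ratio was -0.36 on day 7 and 1.40 on day 3. Cdk1, the kinase that drives entry into mitosis, read 10.24 in injured muscle on day 7 and 13.03 on day 3, with 10.97 and 11.17 in sham, and its ratios were -0.73 and 1.86 (6.02-fold lower). The proliferation marker Mki67 was at -0.49 and 1.82 (4.97-fold), and its second probe differed by -1.5. Cdkn3, a phosphatase of the cycle, was at -0.39 and 2.01, the mitotic kinase Plk1 at -0.50 and 1.88, cyclin A2 (Ccna2) at -0.65 and 1.61, and topoisomerase Top2a at -0.78 and 1.25. Racgap1, needed to divide the cell body, and Spc24, of the kinetochore and not in this list, were 5.29-fold and 5.59-fold lower. In each of these the day 7 muscle lay below sham, by less than 2-fold. The 4 members that did not pass included Cdc25b (-0.41) and Nek2 (-0.15), and both sham spots of Nek2 were below the background limit.

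DNA replication genes were lower in fewer cases. Of 29 measured 11 were lower and none higher, with a median of -0.89. Rrm2, the ribonucleotide reductase subunit of dividing cells, was at -0.66 and 1.36, with its other probe differing by -0.42. The helicase subunits Mcm3 and Mcm6 differed by -1.68 and -1.55, and the other probe of Mcm3 by -0.56. Mcm4 (-0.10) and Pola2 (-0.33) had dim sham spots. Chaf1b, which assembles chromatin behind the replication fork and is not in this list, lay below sham on day 7, at -1.09. On day 3 it lay above sham, at 1.17. Genes for ribosome assembly were mostly slightly lower: 23 of 26 differed downwards, 3 passed, and the median was -0.32. Fibrillarin (Fbl), a nucleolar methyltransferase, was at -0.75 and 0.69.

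Some inhibitors of the cycle were higher. Of 17 measured 5 were higher (29.4%) and none lower, with a median of 0.36. Cdkn1c (p57), which holds differentiating muscle cells out of the cycle, read 12.98 in injured muscle on day 7 and 10.33 on day 3, with ratios of 2.11 and -0.56 (6.34-fold). Cdkn1a (p21), the inhibitor that accompanies myoblast differentiation, was at 0.94 and -0.92 (3.62-fold), with its other probe differing by 0.41. Gadd45a, a stress gene that slows the cycle, was at 1.17 and -2.34 (11.4-fold). Ccng1 was 5.34-fold higher by ratio and 2.43-fold by injured channel, with its sham channel differing by -1.13. Cdkn2a differed by -0.53, with dim sham spots on both days. Cdkn2c differed by -0.51 by ratio and by -1.34 by injured channel, with a dim sham spot on day 7.

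Promoters of division genes are shown because these genes moved together. The promoters are RefSeq sequence of the rat assembly GRCr8, read from 250 bases before to 50 bases after each gene's start, and 33469 were searched on both strands. The letters TTTGAA, the cell cycle homology region, stood in 21 of the 33 promoters of cell cycle genes (63.6%), against 18.3% of all promoters. CCAAT, the binding motif of the factor NF-Y, stood in 27 of 33 (81.8%), against 37.5%. A match describes letters and is not a site of binding. The 130 bases before the start are printed below, 5′ to 3′ on the strand of the gene, for 3 genes chosen after their values were seen, as the list members farthest down whose promoter in the table holds both motifs there. Capitals mark TTTGAA or its reverse TTCAAA and CCAAT or its reverse ATTGG, which overlap in Mki67. Cdk1 lies at chr20:19265163-19265292 (plus strand), Mki67 at chr1:199952594-199952723 (minus) and Cks2, a Cdk1-binding protein at -0.45 and 1.72, at chr17:13727520-13727649 (minus).
Cdk1: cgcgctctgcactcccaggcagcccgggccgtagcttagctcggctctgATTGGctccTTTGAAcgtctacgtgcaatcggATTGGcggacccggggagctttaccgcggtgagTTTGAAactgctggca
Mki67: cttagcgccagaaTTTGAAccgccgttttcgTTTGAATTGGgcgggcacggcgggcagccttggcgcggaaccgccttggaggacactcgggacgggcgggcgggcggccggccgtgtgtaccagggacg
Cks2: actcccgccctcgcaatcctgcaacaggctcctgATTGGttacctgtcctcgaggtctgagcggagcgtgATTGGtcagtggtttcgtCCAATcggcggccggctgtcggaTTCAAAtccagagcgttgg

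Enzymes of sterol and fatty acid synthesis were lower in part, while a desaturase and a regulator were higher. Of 24 measured 10 were lower and 2 higher, with a median of -0.94. Squalene epoxidase (Sqle), a rate-limiting step of cholesterol synthesis, read 7.70 in injured muscle on day 7 and 9.96 on day 3, with ratios of -0.98 and 1.06 (4.10-fold lower). Msmo1 and Cyp51, which remove methyl groups from lanosterol, were 4.30-fold and 3.39-fold lower, and the elongase Elovl6 was at -0.70 and 1.5 (4.59-fold lower). Against these, the desaturase Scd read 12.41 on day 7 and 6.73 on day 3, with ratios of 4.88 and -0.02, 29.8-fold higher by ratio and 51.2-fold by injured channel. Srebf1, a transcription factor of lipid synthesis, was at 2.92 and 0.36 (5.89-fold higher). Of 13 measured adipocyte markers 1 was higher and 1 lower (7.69% each, against 4.1% and 1.89% of all genes). The higher was Car3, which muscle also expresses, at -2.80 and -5.23. The lower was resistin (Retn) at 0.42 and 2.05, with its day 7 sham spot below the background limit. Adiponectin (Adipoq) differed by -0.26 and Lep was not above background in either injured channel. The summed injured level of the adipocyte list was 18800 on day 7 and 14600 on day 3, on the linear intensity scale, and 4970 and 5110 without Cfd (adipsin), which was singled out after its values were seen. The sums of the whole list in sham were 10700 and 15100. Their part in the lipid genes was not tested.

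Interferon response genes were higher. Of 36 measured 26 were higher (72.2%) and none lower, against 4.1% among all genes, and all 36 differed upwards, by 0.34 (Igtp) to 4.77 (Isg15), with a median of 2.15 by ratio and by injured channel alike. The list's median ratio was 1.65 on day 7 and -0.31 on day 3. Isg15, a ubiquitin-like modifier, read 15.03 in injured muscle on day 7 and 9.93 on day 3, with 11.35 and 11.02 in sham. Its ratios were 3.68 and -1.09, a 27.3-fold difference by ratio and 34.2-fold by injured channel, on opposite sides of sham. Irf7, the factor that amplifies type I interferon, was at 3.11 and -0.48 (12.1-fold). The antiviral effectors Mx1 (2.90 and -0.78), Ifit2 (3.42 and -0.48) and Rsad2 (3.00 and -0.94) followed, and the second probe of Rsad2 differed by 0.91. On the day 1 array these genes lay above sham too, at 1.43 for Isg15 and 1.68 for Ifit2. Irf1, an early interferon gamma target, differed by 0.57.

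The interferon-stimulated response element, written as GAAA, 2 bases of any kind and GAAA again, and searched on both strands, stood in 23 of 36 promoters of the interferon list (63.9%) and in 8 of 18 of the class I list (44.4%), against 3.92% of all promoters. The 3 list members farthest up with the element in the 130 bases before their start are printed, chosen after their values were seen, with the element or its reverse in capitals. Irf7 lies at chr1:205800024-205800153 (minus strand), Ifi44 (2.94 on day 7 and -0.50 on day 3) at chr2:243303841-243303970 (minus) and Oas1a, an antiviral synthetase (2.90 and -0.41), at chr12:41330336-41330465 (plus), where 2 matches overlap.
Irf7: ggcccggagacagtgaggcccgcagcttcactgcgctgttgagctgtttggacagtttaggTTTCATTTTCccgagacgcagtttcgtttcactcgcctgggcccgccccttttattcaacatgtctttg
Ifi44: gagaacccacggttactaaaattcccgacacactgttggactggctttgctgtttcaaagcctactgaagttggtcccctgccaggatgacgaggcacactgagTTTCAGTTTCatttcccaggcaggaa
Oas1a: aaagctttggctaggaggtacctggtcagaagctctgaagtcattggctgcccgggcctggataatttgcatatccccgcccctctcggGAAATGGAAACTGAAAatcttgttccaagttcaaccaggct
For muscle lists the MEF2 core, written as CTA, 4 bases of any kind and TAG, stood in 1 of 15 fast fibre promoters (6.67%), 1 of 16 slow fibre promoters (6.25%) and 5 of 17 of the coupling list (29.4%), against 3.84% of all. The E-box CANNTG, bound by myogenic factors, stood in 12 of 15 fast fibre promoters (80%), 11 of 12 of the neuromuscular junction (91.7%) and 12 of 18 of regenerating muscle (66.7%), against 72.1% of all.

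Genes of antigen presentation were higher in part. Of 18 class I genes 9 were higher (50%) and none lower (median 1.08). RT1-S3 was at 2.45 on day 7 and -0.41 on day 3 (7.28-fold), RT1-A2 at 2.04 and -0.09, and RT1-CE1 at 1.81 and -0.08. These heavy chain genes are near-identical copies, and cross-hybridisation between them cannot be told apart from expression. Of 10 class II genes 4 were higher (median 1.04), with RT1-Da at 1.68 and 0.27. Among them RT1-Bb was at 2.46 and 0.35, but at -3.21 on day 1 and -3.23 on day 14, and its other probe differed by 0.32. RT1-Ba, with dim sham spots, was at 0.97 and -0.22, and at -0.84 on day 1 and -0.76 on day 14. The cause of these swings between arrays was not tested. Cd74, the class II invariant chain, was 3.19-fold higher by ratio and 1.55-fold by injured channel, with its sham channel differing by -1.04. RT1-DMa differed by 0.01.

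Cytokines and chemokines went both ways, with 9 of 35 higher (25.7%) and 3 lower (8.57%), against 4.1% and 1.89% of all genes. Their median was 0.32. The interferon-induced attractant of T cells Cxcl10 read 13.27 in injured muscle on day 7 and 8.73 on day 3, with 8.39 and 8.16 in sham. Its ratios were 4.88 and 0.57, 19.8-fold higher. Its relative Cxcl11, with dim sham spots, was 7.79-fold higher by injured channel, the B cell attractant Cxcl13 4.45-fold higher, and the monocyte attractant Ccl12 was at 1.59 and -0.82. Ccl2, the main monocyte attractant, differed by -0.91. The lower ones included Cxcl14, a fibroblast chemokine, at -1.31 on day 7 and 1.12 on day 3 (-2.43 by ratio, -3.58 by injured channel), and the macrophage growth factor Csf1, at -0.65 and 1.04.

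**Figure D5:**
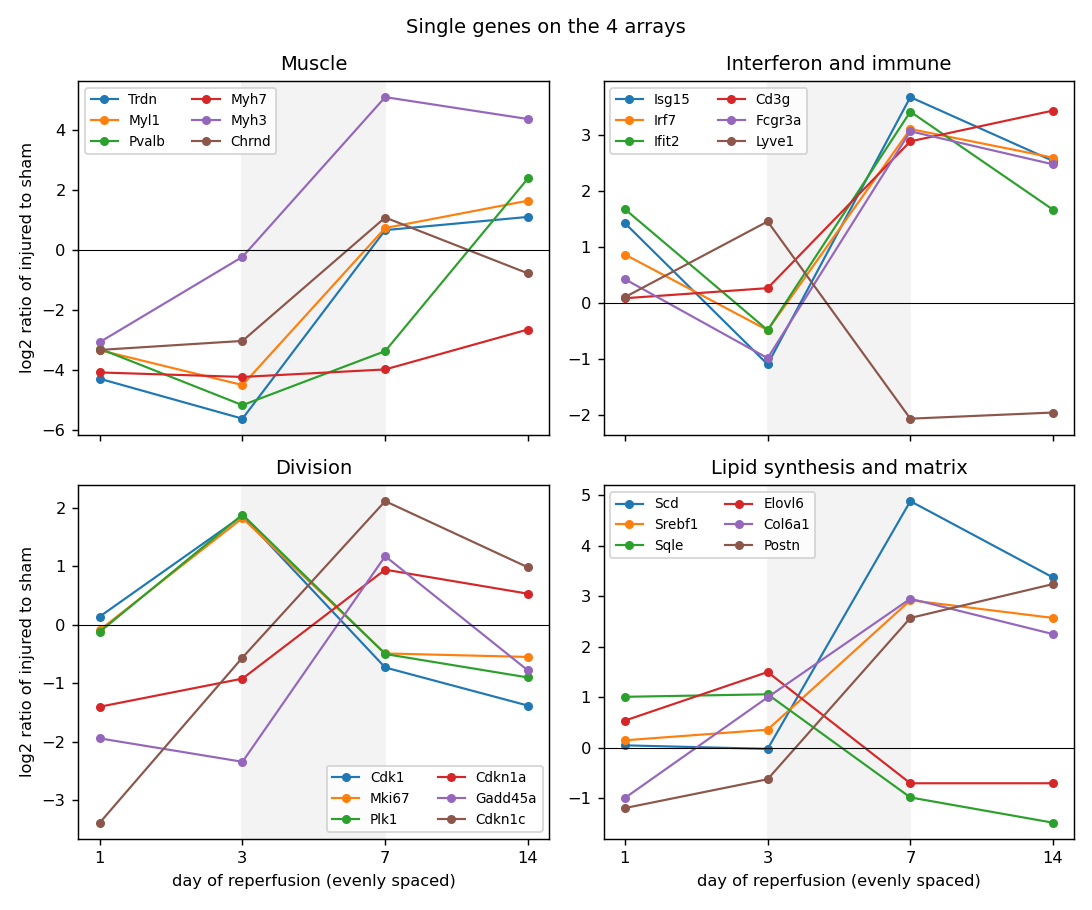
Log2 ratio of injured to sham on the arrays of days 1, 3, 7 and 14 (horizontal, evenly spaced, not to scale) for 24 genes in 4 panels, with the interval from day 3 to day 7 shaded. Each point is 1 array without replicate. Myh7 stayed below sham on every day, between -4.24 and -2.66, and Pvalb was above sham only on day 14, while Isg15 was lowest on day 3 and Cdk1, Mki67 and Plk1 were highest there.

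Macrophage genes split, with 7 of 29 higher (24.1%) and 4 lower (13.8%), against 4.1% and 1.89% of all genes. Their median was -0.07 and ranged between -0.28 and 0.12 over the alternative settings. Fcgr3a, an activating Fc receptor of monocytes and natural killer cells, read 12.21 in injured muscle on day 7 and 7.81 on day 3, with ratios of 3.07 and -0.98 (16.5-fold higher). C1qa, made by tissue macrophages, was at 3.55 and 1.40, C1qc at 2.39 and 0.27, and Ms4a7 at -0.11 and -2.34. On the other side, Lyve1, a receptor of lymphatic endothelium and of a class of resident macrophages, had the lowest difference of any gene with a symbol: injured levels of 7.37 and 10.74, ratios of -2.06 on day 7 and 1.46 on day 3, 11.4-fold lower. The mannose receptor Mrc1 was at -1.69 and -0.07, with its other probe differing by -0.74 and its sham channel by -0.74. Lgals3 was at 0.05 and 1.66 with a saturated day 3 spot (at least 3.05-fold lower). Gpnmb, of lipid-laden phagocytes, was at -0.25 and 1.09 (-1.33 by ratio, -2.36 by injured channel). Cd163 (-1.95 and -1.88), Cd68 (1.13 and 0.57) and Arg1 (-0.51 and -0.59) differed by less than 2-fold, and Cd68 differed by -0.20 by injured channel. Osteopontin (Spp1) was at -1.31 and -0.52, and differed by -1.59 by injured channel. The summed injured level of the whole list was 202000 on day 7 and 229000 on day 3, against 164000 and 190000 in sham, and without Lgals3 it was 190000 on day 7 and 192000 on day 3. The part of macrophage number in the interferon, complement and antigen presentation genes was not tested.

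Lymphocyte genes were higher in part. Of 20 measured 8 were higher (40%), none was lower, and all 20 differed upwards (median 0.69). Cd3g and Cd3d, of the T cell receptor complex, were at 2.89 and 0.27 (6.12-fold) and at 2.00 and 0.28 (3.29-fold). Cd6 was at -0.20 and -2.09 and granzyme B (Gzmb) at 1.79 and -0.03, each with another probe nearer to no difference, at 0.23 and 0.08. Cd8a stayed at -1.57 and -1.65. The summed injured level was 10300 on day 7 and 3510 on day 3, against 6170 and 5420 in sham, and Cd3e, Trat1 and Ms4a1 were not above background in either injured channel. Among 13 neutrophil genes none was higher and 1 was lower (7.69%, against 1.89% of all genes). It was S100a8, a calcium-binding protein of neutrophil cytosol, at -1.67 and -0.20 (2.77-fold), and its 3 probes differed by -1.47 to -0.14. Ngp, Mmp8 and Fpr1 were not above background in either injured channel, and the list's summed injured level was 2080 on day 7 and 3010 on day 3. No mast cell gene of 8 passed, against 4.1% higher and 1.89% lower among all genes, with sums of 2000 and 1660.

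Complement was higher in part, with 8 of 20 genes (40%), none lower, and a median of 0.95. C3, the component at which the pathways meet, was at 1.80 on day 7 and -0.04 on day 3, and C4a at 2.83 and 0.69. C5 differed by -0.13 with dim sham spots, and the receptor C5ar1 by -0.42 by ratio and -1.28 by injured channel.

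Of 32 genes of collagens and matrix 7 were higher (21.9%) and none lower, against 4.1% and 1.89% of all genes. Their median was 0.44, or 0.29 by injured channel. The list's median ratio was above sham on both days, at 1.6 on day 7 and 1.06 on day 3. Periostin (Postn), a matricellular protein of healing tissue, read 10.15 in injured muscle on day 7 and 7.45 on day 3, with ratios of 2.57 and -0.62 (9.11-fold). Col16a1 was at 3.49 and 1.54, Col6a1 at 2.95 and 1.00, and tenascin C (Tnc) at 1.32 and -0.50. Spots of the fibrillar collagens reached the detector's ceiling. The day 7 injured spot of Col1a1 was saturated, its ratios were 3.27 and 1.80, and by injured channel it was at least 1.54-fold higher. Col3a1 was saturated in both injured channels, at 2.66 and 1.61, and no fold is given. Fbn1 and Lox, of microfibrils and crosslinking, differed by -0.67 and -0.25.

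Proteases of the matrix went both ways, with 3 of 24 higher (12.5%) and 4 lower (16.7%), against 4.1% and 1.89% of all genes. Their median was 0.02, and -0.17 to 0.12 over the alternative settings. Mmp14, a membrane protease that activates Mmp2, was at 3.00 on day 7 and 1.03 on day 3, Mmp2 itself at 2.75 and 0.77, and the macrophage elastase Mmp12 at 2.52 and 0.43. Mmp3 was at -2.01 and -0.59, and the aggrecanase Adamts5 at -0.56 and 0.89. Among 21 markers of fibroblasts and fibro-adipogenic progenitors 3 were higher (14.3%) and 2 lower (9.52%), with a median of 0.18. The defining receptor Pdgfra read 9.44 in injured muscle on day 7 and 12.28 on day 3, with ratios of -0.43 and 1.67 (4.29-fold lower). Apod was at 1.46 and -0.61, Mfap4 at 1.51 and -0.22 and Ccn5 at 2.09 and 0.67. The summed injured level was 28000 on day 7 and 39700 on day 3, against 11200 and 22600 in sham. Its part in the collagen values was not tested.

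Galanin (Gal), a neuropeptide of injured nerve, was 11.0-fold lower by ratio and 15.3-fold by injured channel, with injured levels of 8.69 on day 7 and 12.63 on day 3 and ratios of -0.26 and 3.21. Egr2, a factor of myelinating Schwann cells and macrophages, was at -0.71 and 0.47. These and Gap43 were the 3 lower members among 16 genes of Schwann cells and nerve, of which none was higher. The defining factor Sox10 differed by 0.34 and Mag by 0.77, while S100b and Gfap were not above background in either injured channel. The summed injured level of the list was 4670 on day 7 and 11900 on day 3, against 4710 and 4600 in sham. Most of this difference was Gal: without it the injured sums were 4260 and 5560.

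A few vascular genes were higher, at shares above the 4.1% of all genes. Of 22 endothelial genes 2 were higher (9.09%) and 1, Lyve1, was lower (median 0.21). The VEGF receptor Kdr was at 1.72 and 0.37. Ptprb was at 1.92 and 0.81, but its other probe differed by only 0.01. Vwf differed by -0.50. Of 12 pericyte and smooth muscle genes 3 were higher (25%), Des among them. Abcc9, a potassium channel subunit of pericytes, was at 0.72 and -1.24. Smtn was at 0.54 and -0.65, with its other probe differing by 0.38. Of 7 red cell and platelet genes 2 were higher (28.6%). They were the globin Hbb (2.08 and -0.03) and Alas2 (1.91 and 0.10), the first enzyme of heme synthesis in red cells. The summed injured levels on day 7 and day 3 were 25000 and 15700 for endothelium, 29500 and 19000 for pericytes and smooth muscle, and 5170 and 2750 for red cells and platelets. Single genes carried much of the endothelial and pericyte differences: without Kdr the endothelial sums were 12800 and 11100, and without Des, which muscle fibres express, those of pericytes and smooth muscle were 18500 and 14800. In sham the whole lists summed to 12300 and 11800, 26200 and 35200, and 5150 and 3210. Prox1, Cnn1 and Myocd were not above background in either injured channel.

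Of the growth factor lists, the insulin-like growth factor system had the largest share of higher genes. In that system 3 of 12 were higher, or 25% against 4.1% of all genes. They were Igf2 and the binding proteins Igfbp5 (1.81 on day 7 and 0.45 on day 3) and Igfbp4 (1.70 and 0.59). The other probe of Igfbp4 differed by only 0.24. Igf1 stayed above sham on both days (1.32 and 0.90). In the TGF-beta family 1 of 21 was higher (4.76%), a share near the 4.1% of all genes: Tgfb3, at 0.48 and -1.16. Follistatin (Fst), an inhibitor of activin and myostatin, was at 0.62 and 1.64 and did not pass by injured channel. No Wnt gene of 19 passed, against 4.1% higher and 1.89% lower among all genes. Sfrp2, a Wnt modulator, was at 3.44 and 2.54. Of 20 genes of angiogenesis and hypoxia 1 was higher and 1 lower (5% each, against 4.1% and 1.89% of all genes). The lower was adrenomedullin (Adm), at -0.61 and 0.80. The higher was Egln3, a hypoxia-induced hydroxylase, at 0.00 and -1.47.

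Among 21 heat shock genes 3 were higher (14.3%, against 4.1% of all genes). They included the muscle chaperones Cryab (7.82-fold by injured channel, with sham saturated on both arrays) and Hspb8 (0.10 on day 7 and -2.11 on day 3). The general chaperones Hspa8, Hsp90aa1 and Hspd1 differed by -0.44, -0.64 and -0.73. Among 30 proteasome genes none passed (median 0.21), against 4.1% higher and 1.89% lower among all genes. Among 21 antioxidant genes 1 was higher, Gpx3 (0.99 and -0.11), and 1 lower, the reductase Akr1b8 (-3.31 and -2.12). That is 4.76% each way, against 4.1% higher and 1.89% lower among all genes. Heme oxygenase (Hmox1) differed by -0.68. Of 23 immediate early genes 2 were higher (8.7%), among them Nr4a1 (1.43 and -0.15), and 2 lower (8.7%), among them Fosl1 (-0.92 and 0.71). Against 4.1% higher and 1.89% lower among all genes, none of 25 published targets of miR-21 was lower and 3 were higher (12%). They were Tpm1 (at least 14.5-fold by ratio, with the least changed of 4 probes at 0.46), Cfl2 (-0.26 and -2.19) and Btg2 (0.87 and -0.29). Tpm1 and Cfl2 are themselves sarcomere genes, and Pdcd4, Timp3 and Reck differed by 0.07, 0.39 and -0.60.

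Where a called gene with a symbol had several measured probes (218 genes), all of them differed in the same direction in 206, and in none did 2 probes pass 2-fold in opposite directions. In 86 every probe passed 2-fold.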

How the data were processed

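Total RNA of injured and sham-operated gracilis was linearly amplified and labelled during in vitro transcription with Cy5 (injured) and Cy3 (sham), per the labels' protocols. The deposited scanner files hold spot and local background intensities, which the authors' software did not normalize, and per the file headers processed intensities and a log10 ratio of red over green that it background-subtracted and dye-normalized. The deposited flags mark spots above background, saturated or outlying. Per the submitters' processing notes the software was Agilent Feature Extraction 9.5.3, whereas the file headers give 10.5.1.1. The deposited table of log2 ratios equalled the scanner ratio over 40972 probes (largest difference 0.005, column median 0) and was not used further.

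In limma 3.58.1 (R 4.3.3) intensities were corrected by normexp (offset 50) and normalized by loess within each array, with control and outlier spots at weight 0. Spots of a probe were averaged and the brightest probe stood for a gene. Single channels were set against each other after Aquantile normalization of days 7 and 3. Fewer arrays limit precision: with 1 per day no test was possible, and the steps were tested on simulated data. The sham of day 7 was set beside the other shams with all 4 arrays scaled together.

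Of 41012 probes 11140 were named by accession, 6496 by symbol with suffix, 1604 by current symbol, 456 by an older symbol and 134 by description, through RefSeq tables of GRCr8. The rest keep the name of the design. Genes were named by rule: the 12 highest and 12 lowest called genes with a symbol, of each of 43 lists the 4 members farthest in the direction of its median and the 2 farthest in the other, and 27 set genes. Exceptions are stated in the text. The members and lists were chosen with earlier results of these data known. Alternatives changed the offset, the normalization, the filter on dim probes, the probe rule, saturated spots and the scaling of single channels. Protein sequences were not used here.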

Additional observations from a re-analysis of the deposited data

Results flagged for a closer look

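Of the genes called by both measures, 46 lay at least 2-fold above sham on day 7 and at least 2-fold below it on day 3, and 5 lay the other way. With 1 array per day the difference was not tested. Among the genes named above, 9 crossed upwards, with these differences of log2 ratios between day 7 and day 3. Sarcolipin (Sln) differed by 6.0 and cardiac actin (Actc1) by 5.70. The Z-disc scaffold Ldb3 differed by 5.41, the thin filament cap Tmod1 by 5.16 and the fast troponin Tnnt3 by 4.86. The ubiquitin-like modifier Isg15 differed by 4.77, muscle phosphofructokinase (Pfkm) by 4.71, the acetylcholine receptor subunit Chrnd by 4.11 and the stress gene Gadd45a by 3.51. The other 3 crossed downwards: the chromatin assembly subunit Chaf1b by -2.27, the chemokine Cxcl14 by -2.43 and the receptor Lyve1 by -3.51. The sham channels of Tnnt3 and Cxcl14 differed by -1.36 and -1.15 between the days, so their positions against sham depend on which sham is used.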

How the results depend on the processing

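Counts moved by over 1.5 times under 4 of the alternative settings. With a normexp offset of 10 the genes lower on day 7 numbered 800 by ratio and 648 by both measures, against 497 and 422. With the scanner software's ratios 2815 were higher and 2340 lower by ratio, and 1789 higher and 1294 lower by both measures. With median centring 989 were higher and 1034 lower by ratio, so that the balance turned, and 888 higher and 801 lower by both. Scaling processed single channels to the 75th percentile left 2995 genes at least 2-fold different between the sham channels, against 630. The cause of these shifts was not tested. All 915 higher and 422 lower genes were also called with offset 10. A smaller offset shrinks ratios less, so this overlap says little about stability. With median centring 823 and 422 were also called, and with the software's ratios 844 and 393. Every other count stayed within 1.5 times under the filters, the probe rule and the removal of saturated genes. Filters and removals leave the values of the remaining genes as they were, so they could not change a call. Leaving out genes whose sham channels differed at least 2-fold, an alternative chosen after seeing the data, left 887 higher and 406 lower of 21699. No list median of at least 1 in size (8 lists) and none of 159 named genes past 2-fold changed direction under the alternatives run, and 144 of the genes stayed past 2-fold in each. The sums of cell type markers were also taken without the member that changed most, which was added after seeing the data. No paired analysis was possible because each day has 1 array and no test was made. Dim sham spots (34.7% of probes above background on day 7, 41.1% on day 3) and saturated spots limit single genes.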
